A study of Mus musculus with 14 samples.

Results

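The comparison described here is that of stomach medium with intestinal medium in small intestinal (SI) organoids, which are closed epithelial structures grown in culture from intestinal crypts. Its members are 3 of the 14 arrays of the series: the single array of SI organoids grown in stomach medium (Sto med) and arrays 2 and 3 of SI organoids grown in intestinal medium (SI med). They were chosen by their labels, and SI med array 1 was left out because of its stomach-like profile. Both media contain Egf, Noggin and R-spondin (ENR). Sto med adds Wnt, Fgf10 and gastrin (ENRWfg). All organoids of both media carried the genotype Cdx2-/fl / Lgr5-EGFP, in which one Cdx2 allele is deleted and the other is floxed but was not recombined by tamoxifen here, and a GFP and inducible Cre cassette sits in the Lgr5 stem cell gene. Whole organoids were hybridised, so stem and differentiated cells were measured together. Donor mice were males and females aged 3 to 10 months, and the number of animals or clones behind each array is not given in the sources used here.

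In the intestinal crypt, Wnt signals from Paneth cells and the surrounding stroma keep Lgr5-positive stem cells dividing. As cells leave the crypt, Wnt signalling drops and they become absorptive enterocytes, which digest and take up nutrients through a brush border, or secretory goblet, Paneth, enteroendocrine or tuft cells. R-spondin amplifies Wnt signals already present, whereas the stomach medium supplies the Wnt ligand itself. The comparison asks how much of the intestinal programme, and which of its cell types, was still seen in SI organoids when the medium was the one made for stomach epithelium.

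The remaining arrays held 2 Sto organoids in SI med, 1 Sto organoid sample in Sto med, and stem cells sorted by Lgr5-EGFP from clonal organoids (3 control SI SCs, 2 control Sto SCs and 2 Cdx2null SI SCs). The paper places 2 samples of each kind of SC in Sto med. The medium of the other control SI SC array is not given in the sources used here. Values are log2 signal intensities and were compared for 18820 genes, each by 1 probe set. Array medians over all probe sets ran from 4.72 to 5.05. Because a silent gene still gives a signal, levels near or under the median are close to the array's floor, and folds that reach them are compressed. SI med 1 went against its label: Cdx2 measured 5.52 on it against 9.92 and 9.67 on SI med 2 and 3, Cdh17, an intestinal cadherin, 5.41 against 11.54 and 11.17, and the stomach factor Sox2 9.21 against 3.69 and 3.85. SI med 3 was exported differently, since 100% of its values were rounded to 1 decimal on the linear scale against 0.183% on SI med 2, and its upper quartile was 7.57 against 7.89. Whether it was normalised with the other arrays is not given in the sources used here. Of the 18820 genes, 879 (4.67%) lay at least 2-fold apart between SI med 2 and 3, 710 of them higher on SI med 2. The 3 arrays compared came from cells that expressed Xist, at 10.18, 11.13 and 11.11.

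Against both SI med arrays, 658 genes (3.5% of all genes) were at least 2-fold higher on the Sto med array and 498 (2.65%) at least 2-fold lower, 1156 genes in all (6.14%). After quantile normalisation the counts were 589 and 596, so which direction held more genes depended on the scaling. The falls were the steeper ones. A 4-fold margin was passed by 116 genes upward and 211 downward, an 8-fold margin by 27 and 102, and a 16-fold margin by 4 and 53. The difference from the SI med mean exceeded the gap between SI med 2 and 3 for 639 of the 658 higher genes and for 498 of the 498 lower ones. A single array has no replicate spread of its own, so the limma fit assumed that it varied like the arrays of the other groups. With that assumption 663 genes (3.52%) were called, of which 317 (1.68%) rose and 346 (1.84%) fell at least 2-fold at an adjusted p under 0.05, and "rose" and "fell" are used below for such genes. Leaving out SI med 2 gave 1868 higher and 686 lower genes against SI med 3 alone, and leaving out SI med 3 gave 735 and 845 against SI med 2 alone. List counts against 1 array alone, given below, are to be set beside these counts among 18820 genes. With SI med 1 counted as a further SI med array, 103 genes were higher and 24 lower against all arrays, and the limma fit called 1. Genes just inside the 2-fold margin were Snord57 at 1.0032 and Slc39a14 at -1.0019 on the log2 scale, and Bpnt1, at -0.99, lay just outside.

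**Figure D1:**
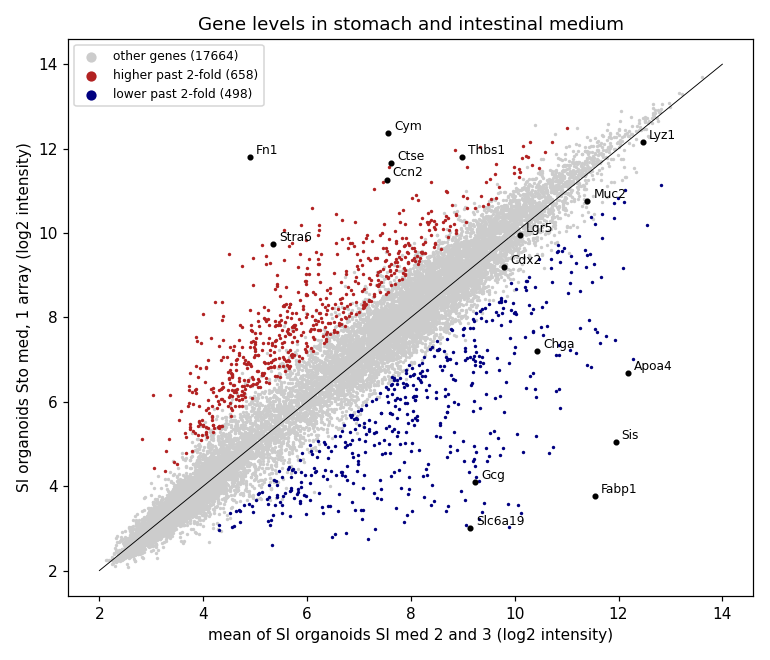
Each point is 1 of 18820 genes, with its mean log2 intensity on SI med 2 and 3 on the x axis and its log2 intensity on the Sto med array on the y axis. Red points (658) were at least 2-fold higher and blue points (498) at least 2-fold lower than on both SI med arrays, and the blue points reach farther from the diagonal, down to Fabp1, Sis and Slc6a19.

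The 15 genes lower past 2-fold that lay furthest from the nearer array included 5 genes of the enterocyte lists, Fabp1, Sis, Slc6a19, Apoa4 and Enpep, and other enzymes and transporters. Fabp1, the fatty acid binding protein of absorptive cells, measured 3.76 on the Sto med array against 10.83 and 12.27 on SI med 2 and 3. That is a 221-fold lower mean (log2 difference -7.79 ± 0.80 SE, adjusted p = 0.000778), and it put the gene under the median of the Sto med array. Sis, the disaccharidase sucrase-isomaltase, stood at 5.04 against 11.88 and 12.00 and was 119-fold lower (-6.90 ± 0.38, adjusted p = 2.79e-05). Rdh7, a retinol dehydrogenase, was 108-fold lower, Maob, a monoamine oxidase, 91.7-fold, the peptidase Mme 78.9-fold, Slc6a19, the neutral amino acid transporter of the brush border, 69.8-fold, and G6pc, the glucose-releasing phosphatase, 67.6-fold. The unnamed transcript 2010106E10Rik was 117-fold lower, at 3.03 against 9.93 and 9.86. On each of these genes the 2 SI med arrays lay within 1.5 log2 units of each other and the Sto med array lay under its own median or just above it. Otc, a urea cycle enzyme, Aadac, an esterase, Adh4, an alcohol dehydrogenase, Enpep, an aminopeptidase, and Slc6a20a, an imino acid transporter, fell between 55.4-fold and 63.2-fold.

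Of 16 measured genes of enterocyte lipid handling, 11 were lower past 2-fold and all 11 fell in the limma fit. The median difference of the list was -3.68, against 0.05 over all genes. Apoa4, an apolipoprotein of chylomicrons, measured 6.67 against 11.99 and 12.38 and was 45.6-fold lower. Apoa1, of the same family, was 22.1-fold lower, Apoc3 23.2-fold, Fabp2 32.2-fold, the cholesterol importer Npc1l1 23.4-fold and the fatty acid receptor Cd36 14.4-fold. The lipid transfer protein Mttp, which loads apolipoprotein B, was 11.5-fold lower at 7.74 against 11.16 and 11.38. Not every step of the pathway moved as far: Apob itself measured 10.64 against 11.45 and 11.15, Dgat2 9.14 against 10.04 and 9.89, and the lipid droplet protein Plin2 10.14 against 10.04 and 9.65. None of the 16 genes was higher past 2-fold.

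Of 21 digestive hydrolases and nutrient transporters, 15 were lower past 2-fold and 12 fell in the limma fit, with a list median of -2.92. Transporters of peptides, sugars and amino acids were among them. The peptide transporter Slc15a1 measured 3.74 against 8.31 and 8.21 (22.9-fold, adjusted p = 4.14e-06), the fructose transporter Slc2a5 4.82 against 8.97 and 9.52 (21.5-fold), and the basolateral glucose transporter Slc2a2 4.34 against 9.61 and 8.62 (27.3-fold). Among hydrolases, trehalase (Treh) was 24.5-fold lower, the meprin subunit Mep1b 16.3-fold and Mep1a 8.64-fold. Slc5a1, the sodium-glucose cotransporter, stayed at 8.83 against 11.47 and 11.50, and intestinal alkaline phosphatase Alpi at 9.17 against 12.32 and 11.85; both were lower past 2-fold but had adjusted p of 0.0535 and 0.3. Mgam (10.74 against 11.81 and 11.55) and Anpep (11.26 against 11.97 and 12.16) remained strongly expressed. The 3 listed genes of iron and purine handling with a positive difference, Cybrd1, Slc40a1 and Ada, lay between the SI med arrays. These counts were 11 and 15 or 16 for the lipid and hydrolase lists under quantile normalisation, median centring and either SI med array alone, and 0 and 0 with SI med 1 included, on which Fabp1 was at 3.59 and Sis at 2.81.

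Of 15 structural brush border genes measured, 4 were lower past 2-fold (median -0.86): Krt20, a keratin of differentiated cells, at 5.76 against 8.58 and 8.82, the myosin Myo1a at 7.50 against 9.86 and 9.97, and the links protein Cdhr5 and its partner Anks4b by 2.53-fold and 2.59-fold. The limma fit called the first 2. Against SI med 2 alone 7 of the 15 were lower past 2-fold, beside 845 of 18820 genes. Vil1, which bundles microvillar actin, stood at 10.65 against 10.91 and 10.66, and the epithelial marker Epcam at 11.44 against 11.56 and 11.20. Whether fewer enterocytes or less RNA per enterocyte gave these levels cannot be told apart in whole organoids, and the same holds for every cell type below.

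The promoter windows of Sis, which fell furthest in the hydrolase list, and of Treh, which was picked because its window holds a match, are printed to show the motifs of Cdx2, the factor whose allele was reduced in all samples, and of Hnf4 factors. Each runs from 250 bases before to 50 bases after the transcript start, read 5′ to 3′ on the gene's strand, from RefSeq, build GRCm38.p6. Capitals mark a match to TTTATG (Cdx) in Sis, at chr3:72967814-72968113 on the minus strand, and to CAAAGTCCA (Hnf4) or its reverse complement in Treh, at chr9:44672983-44673282 on the plus strand.
Sis: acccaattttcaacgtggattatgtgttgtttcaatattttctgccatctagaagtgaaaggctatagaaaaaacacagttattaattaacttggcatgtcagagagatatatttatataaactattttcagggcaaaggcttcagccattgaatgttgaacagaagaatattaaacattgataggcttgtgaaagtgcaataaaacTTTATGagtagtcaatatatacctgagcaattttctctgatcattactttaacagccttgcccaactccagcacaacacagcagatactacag
Treh: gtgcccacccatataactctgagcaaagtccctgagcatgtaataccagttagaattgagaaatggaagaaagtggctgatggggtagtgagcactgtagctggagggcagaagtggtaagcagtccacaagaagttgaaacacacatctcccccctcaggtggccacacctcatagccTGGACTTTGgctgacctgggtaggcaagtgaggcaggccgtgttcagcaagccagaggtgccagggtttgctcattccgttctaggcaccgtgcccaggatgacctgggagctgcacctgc
The match in Sis began at -43 from the start, and that in Treh at -71 on the opposite strand. Such windows were searched on both strands for 4 motifs in 14749 of the measured genes, of which 409 were lower and 491 higher past 2-fold. Matches to different motifs could overlap, and were then counted for each motif. CAAAGTCCA was found in the windows of 0.522% of all genes, in 4.16% of the lower genes (17 of 409) and in 0.611% of the higher ones. TTTATG was found in 11.1% of all, 13.2% of the lower and 7.33% of the higher genes. CTTTGAT, a motif of the Wnt effector Tcf, was found in 3.67% of all, 3.91% of the lower and 3.87% of the higher genes. These motifs were chosen with the levels of the genes known, and a match is a description of letters, not a binding site.

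Cdx2 measured 9.19 on the Sto med array against 9.92 and 9.67, and Hnf4a 11.26 against 11.75 and 11.57. Its paralogue Hnf4g fell 6.55-fold, at 7.65 against 10.45 and 10.26 (adjusted p = 9.76e-05).

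Precursors of 2 intestinal microRNAs fell. The probe set of Mir215 measured 3.82 against 7.66 and 8.25 (17.5-fold lower, adjusted p = 9.76e-05), that of its neighbour Mir194-1 4.79 against 7.38 and 7.82 (6.995-fold, adjusted p = 0.000764) and that of Mir192 5.45 against 6.57 and 7.44 (2.94-fold, adjusted p = 0.173). Mir194-2, the second copy of miR-194, stood at 5.35 against 5.40 and 6.24. These genes were singled out after their values were seen, and the array reads precursor transcripts, not mature microRNAs. The mature sequences, from RefSeq, are given to show which of them share a seed (bases 2 to 8, in capitals).
mmu-miR-215-5p: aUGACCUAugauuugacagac
mmu-miR-192-5p: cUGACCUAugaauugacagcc
mmu-miR-194-5p: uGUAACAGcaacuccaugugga
The seeds of miR-215 and miR-192 are identical, and miR-194 has another. In GRCm38.p6 the first and the third lie together on chromosome 1 (chr1:185313610-185313630 and chr1:185313325-185313346, plus strand), and miR-192 lies on chromosome 19 (chr19:6264857-6264877), beside the other miR-194 copy.

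**Figure D2:**
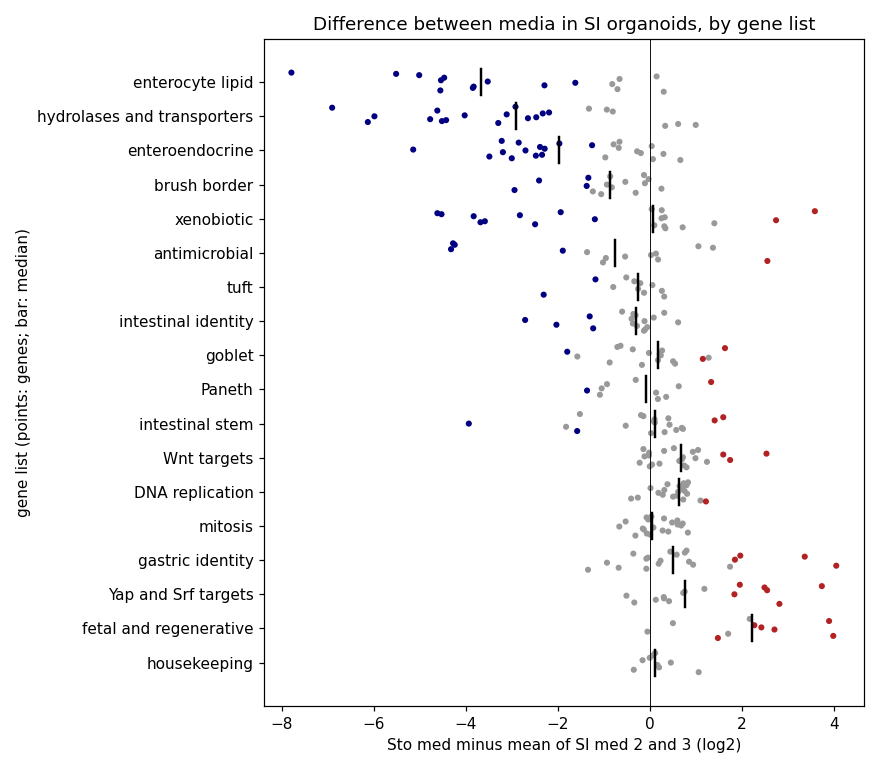
Each point is a measured gene of the list named on the y axis, at its log2 difference between the Sto med array and the mean of SI med 2 and 3 (x axis). Red and blue points passed 2-fold against both arrays, upward or downward, grey points did not, and black bars are list medians, which run from -3.68 for enterocyte lipid genes to 2.22 for fetal and regenerative genes.

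Enteroendocrine cells are the hormone-producing cells of the gut epithelium. Of 23 of their genes, 13 were lower past 2-fold and 12 fell, with a median of -1.97 and none higher. Gcg, the glucagon gene from which GLP hormones are made, measured 4.09 against 8.78 and 9.68 (35.3-fold, adjusted p = 6.98e-05). Tac1, the precursor of substance P, was 11.2-fold lower, the granule protein Chga 9.31-fold (7.21 against 9.97 and 10.89), Sst, somatostatin, 9.15-fold, and the prohormone convertase Pcsk1 8.004-fold. The hormones Gip, Ghrl and Cck and the serotonin enzyme Tph1 fell between 4.88-fold and 6.51-fold. Transcription factors of the lineage differed among themselves. Neurog3, which starts the lineage, measured 6.66 against 7.12 and 7.51, its target Neurod1 3.86 against 5.73 and 5.93, and Rfx6 3.84 against 6.27 and 6.19. Neurod1 and Rfx6 fell 3.91-fold and 5.23-fold, while Neurog3, at 1.58-fold, did not pass 2-fold. The count of lower genes was 13 or 14 under quantile normalisation, centring and either SI med array alone, and 0 with SI med 1 included.

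Other secretory lineages were examined by the same rule. Of 10 Paneth genes 1 was higher and 1 lower, and of 17 goblet genes 2 were higher and 1 lower. Against SI med 3 alone 4 Paneth genes were lower and 4 goblet genes higher, beside 686 and 1868 of 18820 genes. Against SI med 2 alone 4 goblet genes were lower, beside 845 genes. Lyz1, the lysozyme of Paneth cells, measured 12.16 against 12.37 and 12.57. The Paneth protease Mmp7 was higher past 2-fold, at 11.91 against 10.81 and 10.36, and Itln1 lower, at 8.87 against 9.89 and 10.58, and neither was called by limma (adjusted p = 0.386 and 0.236). Wnt3, the ligand made by Paneth cells, stood at 4.94 against 5.63 and 6.12, near the array floor. The goblet mucin Muc2 measured 10.76 against 11.58 and 11.21, and the trefoil peptide Tff3 11.20 against 12.09 and 11.73. Spdef, a transcription factor of goblet cells, rose 3.09-fold (9.66 against 8.30 and 7.76, adjusted p = 0.0136), and the lectin Zg16 was 3.47-fold lower past 2-fold (adjusted p = 0.299). Atoh1, which sets the secretory fate, stood at 8.15 against 8.96 and 8.59, and the Notch ligand Dll1 at 6.65 against 8.07 and 8.03. Among 11 tuft cell genes, Trpm5 and Rgs13 were lower past 2-fold, while Dclk1 measured 6.75 against 7.002 and 7.53 and Pou2f3 6.55 against 6.61 and 7.17.

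Of 17 genes of intestinal identity, 4 were lower past 2-fold and none higher, beside 2.65% and 3.5% of all genes. A negative difference was found for 14 of the 17, and the list median was -0.31. Cdx1 measured 8.48 against 8.28 and 8.07, Isx, an intestinal homeobox factor, 9.55 against 9.79 and 10.03, and Cdh17 11.05 against 11.54 and 11.17. The 4 lower genes were Hnf4g, Maf, the membrane mucin Muc13 (9.93 against 11.13 and 11.34) and the urea cycle enzyme Cps1 (10.46 against 11.65 and 11.74), and the limma fit called Hnf4g alone. On SI med 1 Isx was at 4.64, Muc13 at 3.57 and Cps1 at 3.72. The mean of the list was 9.67 on the Sto med array, 10.32 and 10.08 on SI med 2 and 3, and between 6.85 and 7.31 on the 3 Sto organoid arrays.

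Stomach genes took a mixed course. Sox2 measured 3.41 against 3.69 and 3.85, the pit cell mucin Muc5ac 3.54 against 3.47 and 3.69, Gkn2 3.56 against 3.68 and 3.60, and the stomach claudin Cldn18 5.12 against 5.42 and 3.94, all near the array floor. Of 20 listed genes, 4 were higher past 2-fold. Ctse, the aspartic protease cathepsin E, stood at 11.67 against 9.69 and 5.56, the gland mucin Muc6 at 7.52 against 4.41 and 3.91, Muc1 at 6.33 against 4.62 and 4.11, and Gkn3 at 12.15 against 10.66 and 9.95. Of these Gkn3 alone was called (3.59-fold, adjusted p = 0.0152). The SI med arrays differed on several: Ctse lay over 4 log2 units apart between them, and Tff2 measured 8.80 on SI med 2, 5.78 on SI med 3 and 8.08 on the Sto med array. Against SI med 3 alone 10 of the 20 were higher past 2-fold, and against SI med 2 alone 5 were higher and 2 lower. Of 18820 genes, 1868 were higher against SI med 3 alone, and 735 were higher and 845 lower against SI med 2 alone. The list mean was 6.67 on the Sto med array against 6.44 and 5.48, and 8.40 to 10.26 on Sto organoids. Cym, the milk-clotting protease chymosin, which was not on the list, rose 27.9-fold, to 12.36 from 7.72 and 7.39. It measured 11.51 to 12.94 on the Sto organoids and 7.98, 7.80 and 8.60 on the control SI SCs.

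**Figure D3:**
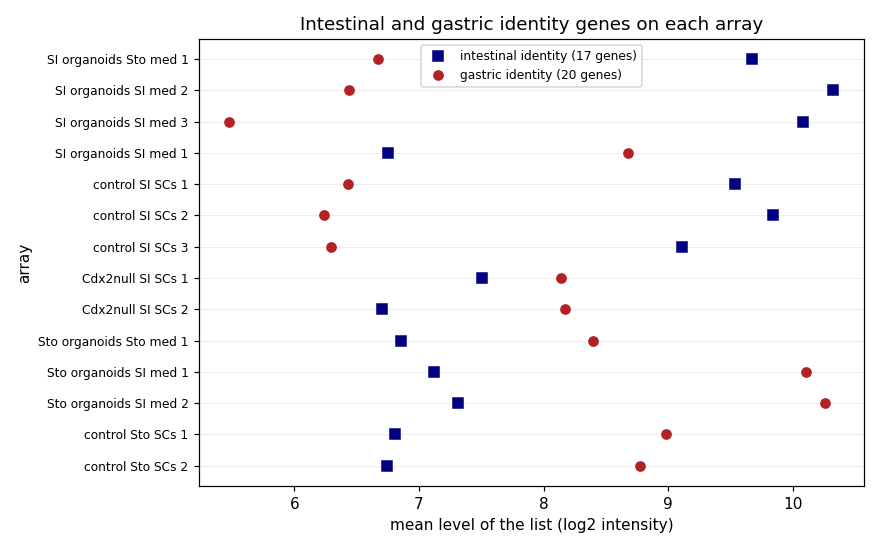
Mean log2 intensity (x axis) of 17 intestinal identity genes (squares) and 20 gastric identity genes (circles) on each of the 14 arrays (y axis). The Sto med array of SI organoids has squares at 9.67 and circles at 6.67, beside SI med 2 and 3 and the control SI SCs, whereas SI med 1, at 6.75 and 8.67, sits with the Sto arrays and the Cdx2null SI SCs.

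The 15 rises furthest from the nearer array held genes of several kinds. Fn1, fibronectin, measured 11.80 against 5.83 and 3.96 and was 120-fold higher (6.91 ± 0.70 SE, adjusted p = 0.000764), the largest rise by the difference from the nearer array. It was also high on the 3 control SI SC arrays (9.04, 9.29 and 8.16) and on the Sto organoids (10.14, 10.43 and 11.60). Cdh13, a cadherin without a cytoplasmic tail, rose 22.4-fold, the membrane-actin linker Msn 21.8-fold (9.40 against 5.62 and 4.29), Crip2 22.5-fold, the actin bundler Fscn1 15.9-fold, and the tubulin Tubb6 14.1-fold. Tnfrsf11b, the decoy receptor osteoprotegerin, rose 16.6-fold, and the protease inhibitor-like Wfdc18 32.3-fold. Sbspon, Tmeff1 and Rab11fip5 rose between 11.8-fold and 12.9-fold. P2rx2, an ATP-gated channel, measured 8.37 on the Sto med array, 4.95 and 3.52 on SI med 2 and 3 and at most 5.93 on any of the other 13 arrays. Gene families picked after their values were seen included the caveolae genes (4 of 7 higher, none lower), with Cavin3 at 9.83 against 6.69 and 5.28, and the matrix protease inhibitors Timp (3 of 4 higher), with Timp2 at 9.95 against 7.12 and 5.30.

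Genes driven by Yap and by Srf, which respond to cell shape and tension, were higher in part. Of 15 measured, 6 were higher past 2-fold and 4 rose, with a median of 0.75. The matricellular genes led: Ccn2 measured 11.27 against 8.36 and 6.71 (13.3-fold, adjusted p = 0.00517), Thbs1, thrombospondin, 11.80 against 9.02 and 8.96 (7.01-fold, adjusted p = 0.00139), and Ccn1 10.26 against 8.02 and 8.60 (3.87-fold). Ajuba, a LIM protein of the Hippo pathway, rose 5.83-fold. Ankrd1 measured 7.44 against 6.01 and 3.89 and F3, tissue factor, 10.28 against 9.26 and 7.63, with adjusted p of 0.145 and 0.166. The contractile genes of the same list stayed near the floor, with Acta2 at 4.74 against 4.52 and 4.36 and Cnn1 at 3.76 against 3.52 and 3.74. Of these genes the promoter of Ankrd1 is shown, because it holds 2 matches to GGAATG, the motif of the Yap partners Tead (capitals, at -210 and -123, both on the gene's strand; GRCm38.p6, chr19:36119795-36120094, minus strand).
Ankrd1: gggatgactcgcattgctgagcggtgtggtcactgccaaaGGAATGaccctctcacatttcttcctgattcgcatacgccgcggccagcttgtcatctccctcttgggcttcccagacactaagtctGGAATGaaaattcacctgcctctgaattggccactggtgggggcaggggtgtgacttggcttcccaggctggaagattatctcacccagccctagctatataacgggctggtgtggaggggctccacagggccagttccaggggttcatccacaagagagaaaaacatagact
The motif was found in the windows of 15.3% of all genes, 19.6% of the higher and 19.1% of the lower ones, so windows with it were about as common in both directions.

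Genes of the fetal and regenerating gut epithelium were the list with the highest median, 2.22. Of 10 measured, 6 were higher past 2-fold. Sprr1a measured 12.03 against 10.12 and 8.54, Anxa1, an annexin, 10.45 against 8.41 and 4.71, Msln, mesothelin, 11.56 against 10.45 and 4.71, and the cytokine Il33 7.83 against 6.73 and 4.09. These levels depend on the array compared, since SI med 2 lay far above SI med 3 on each, and the limma fit called Krt7 alone (12.48 against 11.47 and 10.54, adjusted p = 0.0479). Without SI med 2 the list median was 3.44 and without SI med 3 it was 1.03. Clu, clusterin, measured 12.56 against 11.63 and 9.16. After quantile normalisation 4 of the 10 were higher past 2-fold.

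Stem cell and Wnt genes were examined because Wnt was among the factors added to Sto med. Lgr5 itself measured 9.95 against 9.90 and 10.28, Smoc2 9.87 against 10.03 and 10.10, and the Wnt feedback gene Axin2 8.82 against 8.14 and 8.47. Of 22 Wnt targets measured, 3 were higher past 2-fold and none lower, beside 3.5% and 2.65% of all genes. Their median was 0.67, and 16 of the 22 had a positive difference. Sp5 was the furthest moved, at 7.62 against 5.26 and 4.93 (5.77-fold, adjusted p = 0.016), followed by the adhesion receptor Cd44 at 11.27 against 9.91 and 9.16 (adjusted p = 0.0559) and the stem cell factor Ascl2 at 9.64 against 8.19 and 7.92 (3.01-fold, adjusted p = 0.0497). The Wnt receptor ligase Rnf43 measured 11.07 against 10.38 and 9.89, Znrf3 8.53 against 8.49 and 8.61, and Notum stayed near the floor at 4.54 against 4.29 and 4.17. Against SI med 3 alone 9 of the 22 were higher past 2-fold, beside 1868 of 18820 genes. Of 19 intestinal stem cell genes 2 were higher and 2 lower past 2-fold, beside 3.5% and 2.65% of all genes. The higher ones were Ascl2 and Igfbp4 (11.09 against 10.07 and 9.31). The lower ones were Aqp4 (5.07 against 9.17 and 8.84, adjusted p = 0.083) and Dach1 (4.96 against 6.07 and 7.01). Olfm4 measured 9.53 against 10.21 and 11.89.

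**Figure D4:**
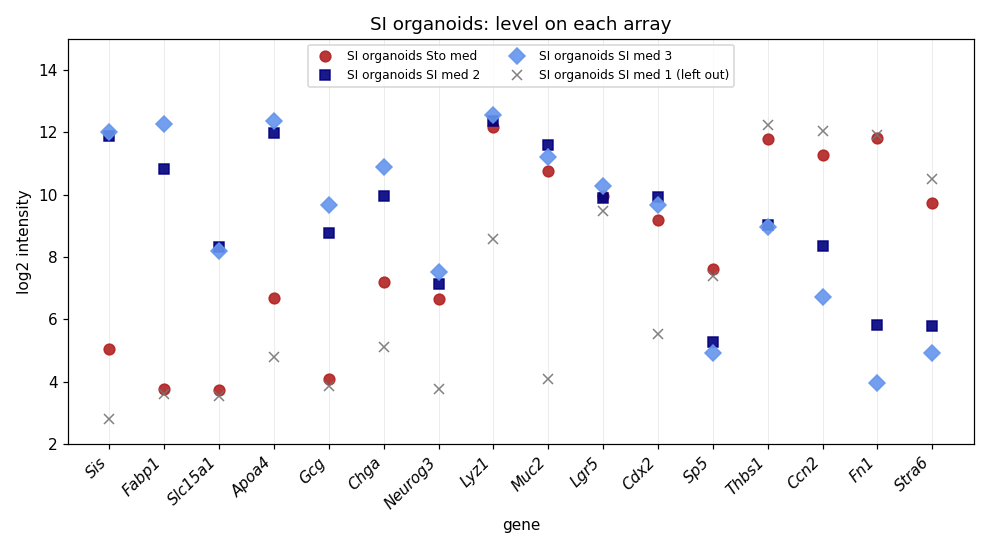
Log2 intensity (y axis) of 16 genes (x axis) on the Sto med array (red circles), SI med 2 and 3 (blue squares and diamonds) and SI med 1, which was left out (grey crosses). Enterocyte and hormone genes at the left lie far lower on the Sto med array, Lyz1, Muc2, Lgr5 and Cdx2 in the middle lie within 1 log2 unit of the nearer SI med array, and matrix genes at the right lie higher.

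For the other 2 added factors, receptors and targets were examined. Fgf10 acts through the receptor Fgfr2, which measured 8.86 against 8.88 and 8.50. Of 17 Fgf and MAPK targets, 2 were higher past 2-fold (median 0.54): Phlda1, at 10.59 against 9.48 and 8.70, and Ier3, at 7.19 against 5.95 and 4.77, which rose 3.55-fold. The feedback inhibitors Spry2 (7.36 against 7.10 and 6.68) and Spry4 (5.72 against 5.54 and 5.05) and the factors Etv4 (8.16 against 7.48 and 7.34) and Etv5 (8.34 against 7.64 and 7.19) were higher on the Sto med array than on both SI med arrays without passing 2-fold. Against SI med 3 alone 6 of the 17 targets were higher past 2-fold and 1 lower, beside 1868 and 686 of 18820 genes. Fgfr4 and Fgfrl1 were higher past 2-fold, and the enterocyte hormone Fgf15 lower, at 4.79 against 7.74 and 5.97. Cckbr, the gastrin receptor, stood at 4.00 against 3.92 and 3.68, near the floor on all arrays.

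Proliferation genes are given beside the 6.14% of all genes that passed 2-fold in either direction. None of 20 mitosis genes passed 2-fold (median 0.05), with Mki67 at 10.04 against 10.30 and 9.71 and Top2a at 9.73 against 9.98 and 9.63. Of 21 DNA replication genes, Ccne1, cyclin E, rose 2.32-fold (8.40 against 7.33 and 7.04) and was the 1 gene past 2-fold, 19 of the 21 had a positive difference, and the median was 0.64. Against SI med 3 alone 5 of the 21 were higher past 2-fold, beside 1868 of 18820 genes. The helicase subunit Mcm2 measured 10.35 against 9.71 and 9.33.

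Genes of drug metabolism, defence and sterol handling were also lower in part. Of 20 genes of foreign compound metabolism, 9 were lower past 2-fold and 2 higher (4 higher against SI med 3 alone). The list median was 0.07, and 11 of the 20 had a positive difference. Cyp2b10 measured 6.87 against 11.64 and 11.14 (23.0-fold lower), Cyp3a11 3.41 against 7.44 and 8.61 (24.5-fold) and the sulfotransferase Sult1d1 7.11 against 11.17 and 10.41 (12.8-fold). The 2 higher genes rose: Cyp1b1 stood at 7.95 against 5.21 and 3.52 and the haem oxygenase Hmox1 at 8.33 against 5.92 and 5.26. Among families picked after their values were seen, 10 of 16 carboxylesterases (Ces) and 5 of 10 glucuronosyltransferases (Ugt) were lower and none higher. Of 14 antimicrobial genes, 4 were lower, among them Reg3b (5.26 against 8.81 and 10.25, adjusted p = 0.124), Reg3g (7.40 against 12.22 and 11.06, adjusted p = 0.0857) and Reg3a, which fell 19.96-fold (2.99 against 5.76 and 8.86), while the chemokine Cxcl5 rose 5.85-fold. Against SI med 2 alone 7 of the 14 were lower, and against SI med 3 alone 3 were higher, beside 845 and 1868 of 18820 genes. Reg1 measured 7.01 against 12.23 and 12.31, but its adjusted p was 0.124. In the sterol pathway, the export pump subunits Abcg5 (6.69 against 10.32 and 10.37) and Abcg8 (6.75 against 9.85 and 9.56) were lower. The synthesis enzymes Hmgcs1 (10.50 against 10.48 and 9.90) and Sqle (10.45 against 10.41 and 9.64) were not. Of 18 cholesterol synthesis genes none passed 2-fold, 14 had a positive difference, and the median was 0.43.

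Of 14 retinoid genes 3 were higher and 2 lower past 2-fold, with a median of 0.16. Stra6, the cell surface receptor for retinol-binding protein, measured 9.75 against 5.78 and 4.91 and rose 21.2-fold (adjusted p = 0.00422). The retinoic acid synthesis enzyme Aldh1a3 rose 6.62-fold and the degrading enzyme Cyp26b1 4.20-fold. Rbp2, the retinol-binding protein of enterocytes, fell 14.2-fold (7.72 against 11.51 and 11.59), and Aldh1a1 was 4.70-fold lower past 2-fold, with an adjusted p of 0.0515.

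Markers of stromal, immune and endothelial cells were mostly near the array floor. The mean level of 11 mesenchyme genes was 4.17 on the Sto med array and 4.35 and 4.37 on SI med 2 and 3, with Col1a1 at 5.21 against 5.15 and 4.70, and Lum at 2.90 against 2.89 and 2.83. Vim was lower past 2-fold. Of 7 immune genes, Cd68 rose 3.86-fold (7.68 against 6.27 and 5.19) and Csf1r was higher past 2-fold, whereas Ptprc, present on all leukocytes, measured 3.83 against 3.91 and 4.10. The 4 endothelial genes averaged 3.53 against 3.82 and 3.66. Of 6 squamous epithelium genes Krt4 alone was past 2-fold, at 10.06 against 7.80 and 3.29. Small nucleolar and Y RNA genes, a family picked after its values were seen, moved with the array: 26 of 58 were higher past 2-fold and none lower, with a median of 1.43, among them Rny1 at 8.08 against 3.36 and 4.65 and Snord118 at 9.51 against 5.21 and 6.54. Their part in the other results was not tested.

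The genes were then followed onto arrays not used to choose them. The 498 lower genes had a median level of 5.70 on the Sto med array and 8.26 and 8.33 on SI med 2 and 3. Their median was 5.59, 6.11 and 5.44 on the control SI SCs, sorted for Lgr5, of which the paper places 2 in Sto med. On SI med 1 their median was 4.56 and on the 3 Sto organoid arrays 4.70 to 5.04. The 658 higher genes had medians of 7.94 on the Sto med array, 6.23 and 5.44 on SI med 2 and 3, 6.82 to 7.21 on the control SI SCs, 7.89 on SI med 1 and 7.28 to 7.94 on the Sto organoids. The medians of all genes ran from 5.57 to 6.13. On the control SI SCs, Sis stood at 4.60, 5.61 and 5.71 and Gcg at 3.69, 3.85 and 4.29, near the level of the whole organoids in Sto med, and Muc2 at 7.64, 8.48 and 7.24, more than 2 log2 units below them.

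The same change of medium was made in Sto organoids, with 1 array in Sto med and 2 in SI med, so both effects could be set side by side on separate arrays. The media do not mean the same for growth in both. The paper uses SI med to let Sto organoids differentiate, and reports that Sto SCs needed Wnt, Fgf and gastrin to grow. Control SI SCs grew in either medium. What this did to the values below was not tested. In Sto organoids 973 genes (5.17%) were higher and 707 (3.76%) lower past 2-fold against both SI med arrays, 1680 in all (8.93%), and limma called 1051 (5.58%), 655 up (3.48%) and 396 down (2.1%). Centring the arrays on their medians turned the former split into 1525 higher and 439 lower and the latter into 1212 and 303. That Sto med array came from cells with Xist at 3.23 and the Y-linked Eif2s3y at 8.04, against 11.55 and 11.39 and against 2.88 and 2.80 on the SI med arrays, so sex and medium cannot be told apart there. Of the genes higher in SI organoids, 25.4% were higher in Sto organoids too (167 of 658, which is 17.2% of the 973, beside 5.17% of all genes) and 7.45% were lower. Of the lower genes, 15.9% were lower in both (79 of 498, which is 11.2% of the 707, beside 3.76% of all genes) and 5.22% were higher. Genes higher past 2-fold in both included Stra6 (Sto organoids 10.97 against 5.23 and 5.69), Wfdc18 (8.51 against 4.04 and 5.65), Sbspon (8.97 against 3.86 and 3.79), Fscn1, Muc6 and Lbp, the lipopolysaccharide-binding protein (11.55 against 4.62 and 4.68). Genes lower past 2-fold in both included Krt20 (7.92 against 11.54 and 11.43), Sult1d1 (6.18 against 10.85 and 10.87), Cyp2c65 (4.81 against 10.46 and 11.13), Sult1b1, Cyp2d26 and Fmo5.

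A direct test of the difference between the 2 medium effects, fitted as an interaction, called 523 genes (2.78%), 212 (1.13%) with a more positive and 311 (1.65%) with a more negative effect in SI organoids. With centred arrays the split was 159 and 480. In Sto organoids 19 of 20 mitosis genes and 18 of 21 DNA replication genes were higher past 2-fold (medians 2.84 and 2.12), and the interaction was called for 10 and 5 of them. Mki67 measured 10.26 in Sto med against 6.67 and 7.70, and Lgr5 9.29 against 4.20 and 4.32. Of the 22 Wnt targets 10 were higher in Sto organoids, Axin2 among them at 7.37 against 4.06 and 4.22, and the interaction was called for Lgr5 and Ascl2. All of these interaction calls had the more negative effect in SI organoids. The same sign held for the calls of 8 of 16 lipid genes, 12 of 21 hydrolases and transporters and 11 of 23 enteroendocrine genes. Most genes of these last lists were near the floor in Sto organoids in either medium. Stomach pit genes fell in Sto organoids and were near the floor in SI organoids in both media. In Sto organoids Muc5ac measured 3.59 in Sto med against 12.28 and 12.03, Gkn2 3.87 against 12.40 and 12.45, and Gkn1 5.21 against 12.47 and 12.45.

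**Figure D5:**
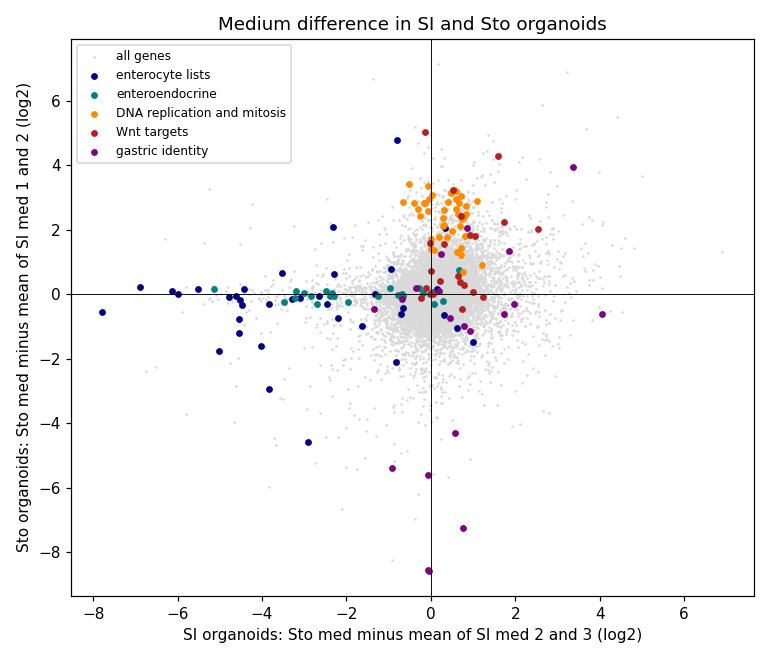
Log2 difference between Sto med and the mean of the SI med arrays for each gene in SI organoids (x axis; SI med 2 and 3) and in Sto organoids (y axis; SI med 1 and 2), with gene lists in colour. Enterocyte and enteroendocrine genes spread to the left. Enteroendocrine genes lie near 0 on the y axis, whereas enterocyte genes run there from -4.57 for Alpi to 4.78 for Anpep. DNA replication and mitosis genes lie above, between -0.67 and 1.21 on the x axis.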

How the data were processed

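Each of 14 RNA samples was measured on an array of its own (Affymetrix Mouse Gene ST 1.1). The authors deposited log2 values for 35556 probe sets, made with the RMA-sketch method, which corrects background and scales arrays to a common distribution; the upper quartile was 7.57 and 7.50 on SI med 3 and control SI SCs 3 and 7.79 to 7.90 on the others, and whether those 2 were scaled with the rest is not given in the sources used here. The values were used as deposited, and 0 value columns were left unmatched. Probe sets with 1 gene symbol (21218; 1881 had several and 12457 none) were named from the platform annotation, with 21185 symbols updated through a RefSeq table of GRCm38.p6, and of 1386 genes with several probe sets the one with the highest mean over 14 arrays was kept. The number of arrays, 1 against 2, limits the precision, and no source says that arrays came from separate animals, so p-values measure only the spread between these samples.

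A gene counted as past 2-fold when the Sto med array differed from both SI med arrays by at least 1 on the log2 scale. limma 3.58.1 in R 4.3.3 (lmFit, eBayes, 2-sided) fitted 7 groups on 13 arrays, leaving 6 residual degrees of freedom, with Benjamini-Hochberg adjustment over 18820 genes at 0.05 and at least 2-fold. SE is that of the log2 difference. Scripts were tested on simulated data. Lists (37) were counted without a set test. The genes and lists were chosen with earlier results of these data known. Named were the 15 rises and 15 falls furthest from the nearer array, core list genes, up to 6 list members per direction past 2-fold, up to 8 per direction shared with Sto organoids and up to 8 per direction called for the interaction; other genes, and further list members given as examples, were picked after their values were seen. Alternatives covered scaling, probe set choice, dim genes, the SI med arrays used, the fold and the methods' t-test.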

Additional observations from a re-analysis of the deposited data

Results flagged for a closer look

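The medium effect differed between SI and Sto organoids, by the limma interaction, for 16 genes with the largest such differences. Values are the log2 medium effect in SI organoids minus that in Sto organoids. Genes of the enterocyte lists had the more negative effect in SI organoids: Fabp1 at -7.25, Sis at -7.13 and Slc6a19 at -6.23. So did Mme at -8.01, 2010106E10Rik at -7.08 and G6pc at -6.19. Mme was higher in Sto med in Sto organoids, at 8.55 against 6.38 and 7.31. For Lcn2, an antibacterial iron-binding protein, the difference was -8.06, and for Cfhr2, a complement factor H relative, -6.99. Lcn2 measured 10.79 in Sto organoids in Sto med against 4.21 and 3.99 in SI med, and 6.55 against 8.65 and 7.18 in SI organoids. Stomach pit genes had the more positive value, with a lower level in Sto med in Sto organoids: Muc5ac at 8.52, Gkn2 at 8.48 and Gkn1 at 8.01. The same sign held for Clca1 at 6.60, Ivl at 6.29, Trim29 at 6.13, Atp6v0d2 at 6.06 and Aldh3b2 at 6.02. Each side of the difference rests on 1 Sto med array, and the Sto organoid one differs in sex from its SI med arrays.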

How the results depend on the processing

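Counts are given as total called genes. For SI organoids the 2-fold rule gave 1156; it gave 731 (524 higher, 207 lower) with genes of a mean of at least 6, 127 with SI med 1 included, 2637 at 1.5-fold and 327 at 4-fold, and 1580 to 2554 without either SI med array. limma gave 663; it gave 415 (298 higher) with the filter on dim genes, 1 with SI med 1, 383 with the spread of the 6 organoid arrays, 813 (351 higher, 462 lower) after quantile normalisation, and 433 to 1137 without SI med 3 or SI med 2. The methods' t-test gave 242 at its unadjusted threshold and 0 after Benjamini-Hochberg adjustment, with 1 degree of freedom; 3135 genes had an unadjusted limma p under 0.05. In Sto organoids limma gave 1051, 510 to 742 without either SI med array, and the t-test 564 and 0. The difference of effects gave 523; it gave 983 after quantile normalisation, 318 with the filter, 38 with SI med 1, 291 with the organoid spread, 445 to 872 without an SI organoid array and 254 to 401 without a Sto organoid array, and centring gave 159 higher and 480 lower. Scaling moved the split of calls: centring the arrays on their medians gave 1525 higher and 439 lower genes in Sto organoids by the 2-fold rule and 1212 and 303 by limma, with the median of all genes there at 0.25 in place of -0.01. Among named genes past 2-fold, including SI med 1 changed the sign for Muc13 (1.25), Itln1 (0.67), Zg16 (0.76), Cdhr5 (1.01), Cps1 (1.42) and Muc1 (-0.45). Genes short of 2-fold are not in that list. Of these, Cdx2 measured 5.52, Muc2 4.07 and Olfm4 3.97 on SI med 1. On the Sto med array they measured 9.19, 10.76 and 9.53. Of 193 named genes, 175 were unchanged in direction and call under quantile normalisation, 190 under centring and 190 with the mean of the probe sets. No paired analysis was possible because the SI organoid Sto med array carries no number and the Sto organoid groups share only replicate number 1. The causes were not tested.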
